A study of Homo sapiens with 8 samples.

Results

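The question addressed here was which RNA regions the aldehyde pulldown enriched to a different degree with and without ALKBH1, once each genotype's own input was taken into account. ARP-seq had been applied to HEK-293, as the labels name it (the study's methods name HEK 293T), an established line from human embryonic kidney, in 4 groups of 2 libraries: WT input, WT IP, ALKBH1 knock out (KO) input and KO IP. Both genotypes were handled alike. Total RNA was fragmented, given a synthetic formylcytidine spike-in and treated with the aldehyde reactive probe (ARP), an aldehyde-binding reagent that carries biotin; a part was kept as input and the rest was bound to streptavidin and sequenced as IP. Per the study's methods, KO lines were grown from single CRISPR-edited cells; which KO line was sequenced is not given in the sources used here, and any other difference between a KO line and the WT cells cannot be told apart from the loss of ALKBH1. For each region the interaction was the log2 of (WT IP/WT input)/(KO IP/KO input), and a positive value means more enrichment in WT. Members were the regions with a called peak in every one of the 8 libraries, after peaks that overlapped by at least 1 nt on one reference and strand had been merged. This held for 186 of 1373 regions. The peaks of a member could span different stretches in different libraries. Of the 186, 22 had the same first start in all 8 libraries and 2 the same first start and last end. Between these ends a library could hold more than 1 peak, with gaps. The ratios therefore do not compare counts over a fixed interval. There were 84 on mature cytosolic tRNA, 29 at nuclear tRNA gene loci, 29 on cytosolic rRNA, 13 on small RNAs, 11 intergenic or antisense, 9 on mitochondrial tRNA, 6 in introns of protein-coding genes, 3 on lncRNAs, 1 in an mRNA exon and 1 on mitochondrial rRNA.

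ALKBH1 is an iron- and 2-oxoglutarate-dependent dioxygenase. It oxidises 5-methylcytidine at the wobble base, position 34 and the first base of the anticodon, of cytosolic tRNA-Leu-CAA and mitochondrial tRNA-Met, where NSUN2 and NSUN3 place the methyl group. The product 5-formylcytidine (f5C) carries the aldehyde that ARP can label. A tRNA is transcribed with a leader and a trailer, and in some genes an intron, which are removed on the way to the mature form; reads that hold such sequence map to the gene in the genome rather than to the mature tRNA.

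These tRNA genes either encode the mature tRNA with the highest interaction or belong to the regions with the highest values, and are shown so that the wobble base can be seen. Each runs 5′ to 3′ on the transcribed strand of GRCh38 at its RefSeq position, with the anticodon in capitals. The Leu-CAA, Tyr-GTA and Arg-TCT genes hold an intron 3′ of the anticodon. TRL-CAA4-1 encodes tRNA-Leu-CAA-4-1, and TRL-CAA1-1 is 1 of the gene copies of tRNA-Leu-CAA-1-1.
TRL-CAA4-1 (chr1:248873855-248873960, plus strand): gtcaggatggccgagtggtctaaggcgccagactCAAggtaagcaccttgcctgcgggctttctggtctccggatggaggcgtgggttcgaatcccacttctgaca
TRL-CAA1-1 (chr6:28896223-28896328, minus strand): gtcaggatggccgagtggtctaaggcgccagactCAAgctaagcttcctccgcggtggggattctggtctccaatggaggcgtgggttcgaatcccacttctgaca
TRL-CAA3-1 (chr6:27602569-27602675, minus strand): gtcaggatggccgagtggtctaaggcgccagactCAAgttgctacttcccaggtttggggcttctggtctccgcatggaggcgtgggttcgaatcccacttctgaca
MT-TM (chrM:4402-4469, plus strand): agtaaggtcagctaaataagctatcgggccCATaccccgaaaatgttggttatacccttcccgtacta
TRY-GTA2-1 (chr2:27050782-27050870, plus strand): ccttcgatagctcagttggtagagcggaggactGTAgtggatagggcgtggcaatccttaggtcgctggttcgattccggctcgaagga
TRR-TCT1-1 (chr1:93847573-93847657, plus strand): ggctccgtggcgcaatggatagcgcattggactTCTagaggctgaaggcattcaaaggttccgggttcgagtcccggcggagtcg

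Peak cDNA counts (unique molecules) summed to 94218 and 98032 for WT input, 194494 and 285539 for KO input, 65413 and 48380 for WT IP and 53420 and 52137 for KO IP, of which the members held 77.6% to 86.6%. Single counts of members ran from 10, the lowest count that any list holds, to 21331, and 37 members had a count of 10 to 15 in at least 1 library. No library listed a peak on ALKBH1, NSUN2, NSUN3, TET1, TET2, TET3 or TRDMT1, so neither the knockout nor the enzymes could be checked here, and with 1 mRNA exon among the members the cell type could not be checked either. Over the members, log2 counts of the replicates had a Pearson's r of 0.963 to 0.975. Levels are counts scaled by TMM to the members' sum and given as CPM. Errors are standard errors of log2 values, worked back from the F statistic of edgeR's quasi-likelihood test, with n = 2 libraries per group. The p-values rest on the spread between replicates in all 4 groups, moderated over the regions.

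Of the 186 regions, 56 (30.1%) had an interaction past an adjusted p of 0.05 in edgeR's quasi-likelihood test, with 37 (19.9%) higher in WT and 19 (10.2%) lower. The nuclear tRNA gene loci had 13 higher and 0 lower of 29 and a median interaction of 0.65, beside 0.04 over all regions. At an unadjusted p under 0.05, 2 of these loci were lower; DESeq2 called 6 of them higher and 1 lower. With each input paired to the IP of the same number and genotype, 14 were higher and 3 lower, the 3 being TRR-TCG1-1, TRI-AAT1-1 and TRS-GCT3-1. Mature cytosolic tRNA had 16 higher and 5 lower of 84 with a median of 0.08, which was −0.08 with RLE factors and −0.29 with peak totals. The calls on mature tRNA were 13 higher and 11 lower with RLE factors, 9 and 19 with peak totals, and 20 and 8 with the paired fit. Cytosolic rRNA had 1 higher and 10 lower of 29 with a median of −0.41. The ranked plot has a short steep limb at the top, formed by Leu-CAA, the region of mitochondrial tRNA-Met and tRNA gene loci, and a long shallow remainder. Without WT IP replicate 2, or without KO IP replicate 1, 33 regions were past the threshold.

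**Figure D1:**
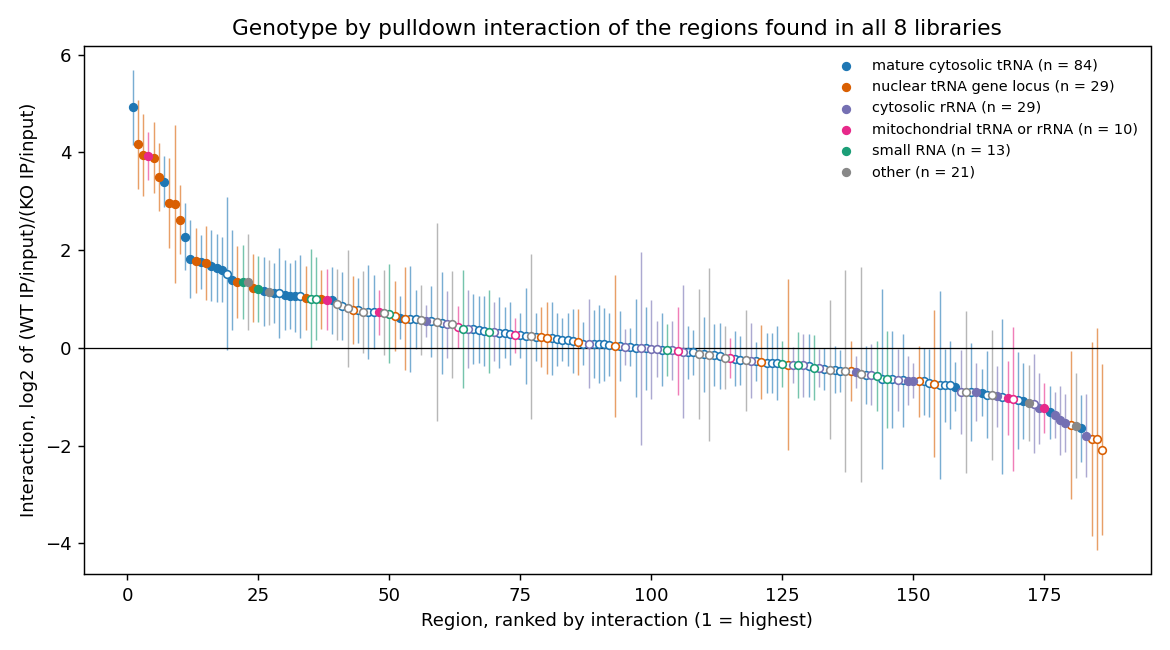
Interaction of the 186 regions (y axis, log2, lines are 95% intervals) by rank (x axis), coloured by RNA class; filled points passed an adjusted p of 0.05. The 10 highest regions lie between 2.63 and 4.92, and the lowest filled point is 28S rRNA 2738-2747 at −1.80.

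The balance of higher and lower values depended on the scaling, which shifts all interactions together. The median was 0.04 with TMM, −0.14 with RLE factors, −0.34 with peak totals as library sizes and 0.26 with rRNA peak counts as library sizes. The calls split into 37 higher and 19 lower with TMM, 33 and 32 with RLE, 21 and 48 with peak totals, and 46 and 13 with rRNA counts. Under all 4 scalings 21 regions (11.3%) were higher and 13 (6.99%) were lower. The 21 comprised 9 mature tRNAs, namely Leu-CAA-4-1 and 1-1, Val-CAC-1-1 and 4-1, Val-TAC-4-1 and 1-1, Glu-TTC-1-1, Arg-CCT-1-1 and Trp-CCA-2-1. They also comprised the MT-TI/MT-TM region, the lncRNA ENSG00000286171 and 10 gene loci: TRL-CAA1-1, TRL-CAA1-2, TRL-CAA3-1, TRY-GTA2-1, TRR-TCT1-1, TRF-GAA1-1, TRC-GCA2-2, TRA-AGC1-1, TRA-TGC1-1 and TRX-CAT1-1. The 13 comprised 7 regions of 28S rRNA, 18S rRNA 912-919, MT-TF/MT-RNR1, and mature Ser-CGA-1-1, Arg-TCG-1-1, Lys-CTT-1-1 and Lys-TTT-3-1. When each library was left out in turn, 16 regions (8.60%) were higher and 8 (4.30%) lower in every fit.

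**Figure D2:**
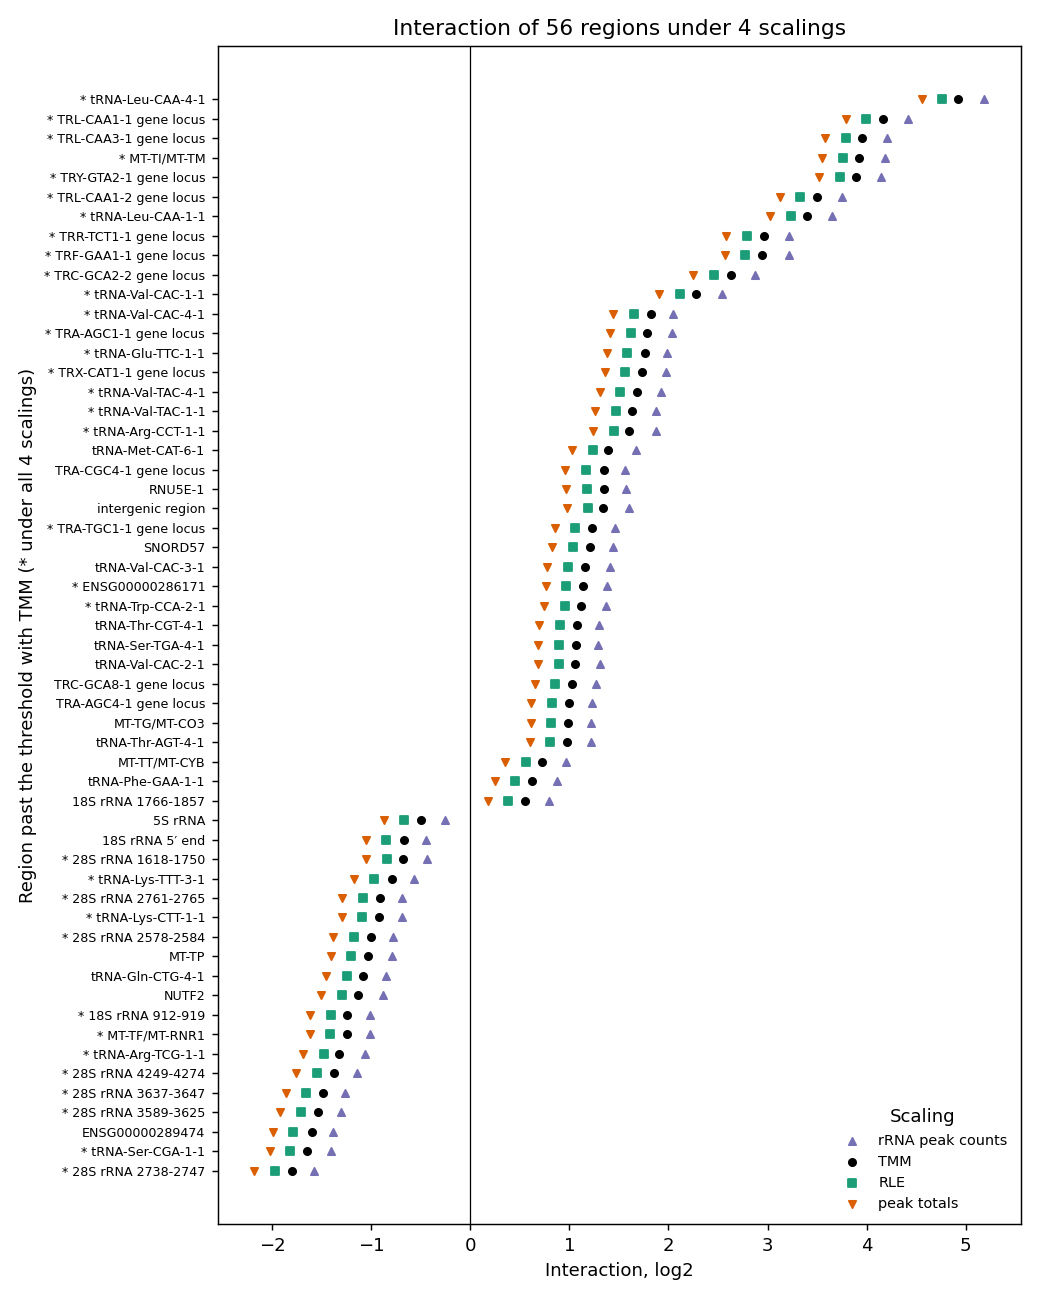
Interaction (x axis, log2) of the 56 regions past the threshold with TMM (y axis) under 4 scalings (marker shapes); an asterisk marks the 34 regions past the threshold in one direction under all 4. No region changes sign between scalings, although the median of all 186 regions runs from −0.34 to 0.26.

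Mature tRNA-Leu-CAA, which reads the leucine codon UUG, had the highest interaction of the 186 regions. tRNA-Leu-CAA-4-1 had 5776 and 6593 CPM after pulldown in WT and 220.5 and 245 after pulldown in KO, against 329 and 423 before it in WT and 394 and 466 before it in KO. Both WT IPs lay far above the other libraries, and both KO IPs below all 4 inputs. The interaction was 4.92 ± 0.33, a 30.4-fold ratio of ratios (adjusted p = 2.49e-05), and the KO IP counts behind it were 10 and 11, at the minimum that the lists hold. The more abundant tRNA-Leu-CAA-1-1, a reference shared by 2 gene copies, had 9712 and 10220 CPM after pulldown in WT and 838 and 802 after pulldown in KO, against 1624 and 1808 before it in WT and 1429 and 1558 before it in KO. Its libraries showed the same pattern, with an interaction of 3.40 ± 0.23 (10.6-fold, adjusted p = 2.49e-05). IP over input was 4.04 ± 0.22 in WT and −0.89 ± 0.26 in KO for 4-1, and 2.54 ± 0.16 and −0.87 ± 0.17 for 1-1, all past the threshold. The difference between the inputs of the genotypes was −0.20 (adjusted p = 0.468) for 4-1 and 0.20 (adjusted p = 0.307) for 1-1. In bulk RNA, fewer molecules of a tRNA and less label on each cannot be told apart from IPs alone, so the inputs are given beside them. Either merged region covered nucleotides 2 to 49 of the mature tRNA, with the anticodon at 35 to 37.

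Summed over every mature reference with a peak, tRNA-Leu-CAA had 1068 and 844 counts after pulldown in WT and 70 and 47 after pulldown in KO, against 237 and 263 before it in WT and 433 and 693 before it in KO. The interaction of the sum was 4.32 ± 0.29 (adjusted p = 1.72e-05), the highest of the 36 anticodon sums with a count in each library. A reference with no listed peak enters such a sum as 0, and 5 and 4 of the 5 Leu-CAA references were listed in the WT IPs but 4 and 2 in the KO IPs. Summed only over references listed in every library, the interaction was 4.00 ± 0.25 (adjusted p = 1.15e-05), and with unlisted references set to 10 counts it was 3.87 ± 0.22 (adjusted p = 1.03e-05).

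Genomic peaks at 3 tRNA-Leu-CAA genes gave the same contrast. TRL-CAA1-1 had 114 and 120 counts after pulldown in WT and 12 and 10 after pulldown in KO, against 15 and 11 before it in WT and 38 and 51 before it in KO. TRL-CAA3-1 had 230 and 186 counts after pulldown in WT and 21 and 20 after pulldown in KO, against 12 and 18 before it in WT and 42 and 52 before it in KO. TRL-CAA1-2 had 240 and 190 counts after pulldown in WT and 28 and 23 after pulldown in KO, against 33 and 35 before it in WT and 67 and 125 before it in KO. At each of the 3 the WT IPs were above the KO IPs in count. The KO inputs held more counts than the WT inputs, but these counts are unscaled and the KO input libraries were larger. After scaling, the inputs differed past the threshold at none of the 3 loci. The interactions were 4.17 ± 0.39, 3.95 ± 0.36 and 3.50 ± 0.30, with adjusted p of 1.39e-04, 1.35e-04 and 9.60e-05. All 3 merged regions began a few nt before the gene, in the leader, and ran across the anticodon, but single libraries covered less. At TRL-CAA1-1 the peak of WT IP replicate 1 covered only the 3′ 36 nt of the region's 103 and missed the anticodon. At TRL-CAA1-2 the WT IP peaks began at nt 13 and 41 of the region's 108, past the leader. In KO, IP over input was 0.10 ± 0.29 at TRL-CAA1-1 and 0.24 ± 0.22 at TRL-CAA1-2, neither past the threshold, but 0.91 ± 0.26 (adjusted p = 0.0175) at TRL-CAA3-1.

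Mitochondrial tRNA-Met, whose wobble f5C lets it read both AUG and AUA in mitochondria, lay in the region with the smallest adjusted p. This region ran at chrM:4261-4450 from the end of MT-ND1 over MT-TI (tRNA-Ile) into MT-TM. It had 198600 and 231800 CPM after pulldown in WT and 20710 and 23270 after pulldown in KO, against 12040 and 15720 before it in WT and 20530 and 22450 before it in KO. The WT IPs stood far above everything else, and the KO IPs lay close to the KO inputs. The interaction was 3.92 ± 0.21 (15.2-fold, adjusted p = 1.34e-05), from an IP over input of 3.96 ± 0.16 in WT and 0.03 ± 0.15 in KO, and the WT inputs were lower than the KO inputs by a log2 difference of −0.63 (adjusted p = 0.0145). In the inputs 1 peak ran across both tRNAs, whereas in the IPs they were called apart. On MT-TM the WT IPs held 9326 and 8311 counts against 753 and 866 for KO. On MT-TI they held 61 and 56 counts against 186 and 179 for KO. MT-TM thus made up 99.4% and 99.3% of the region's pulled-down counts in WT, and 80.2% and 82.9% in KO. The pooled value therefore joins a pair of tRNAs whose IP counts differed in opposite directions, and no input of MT-TM alone can be read from the lists.

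**Figure D3:**
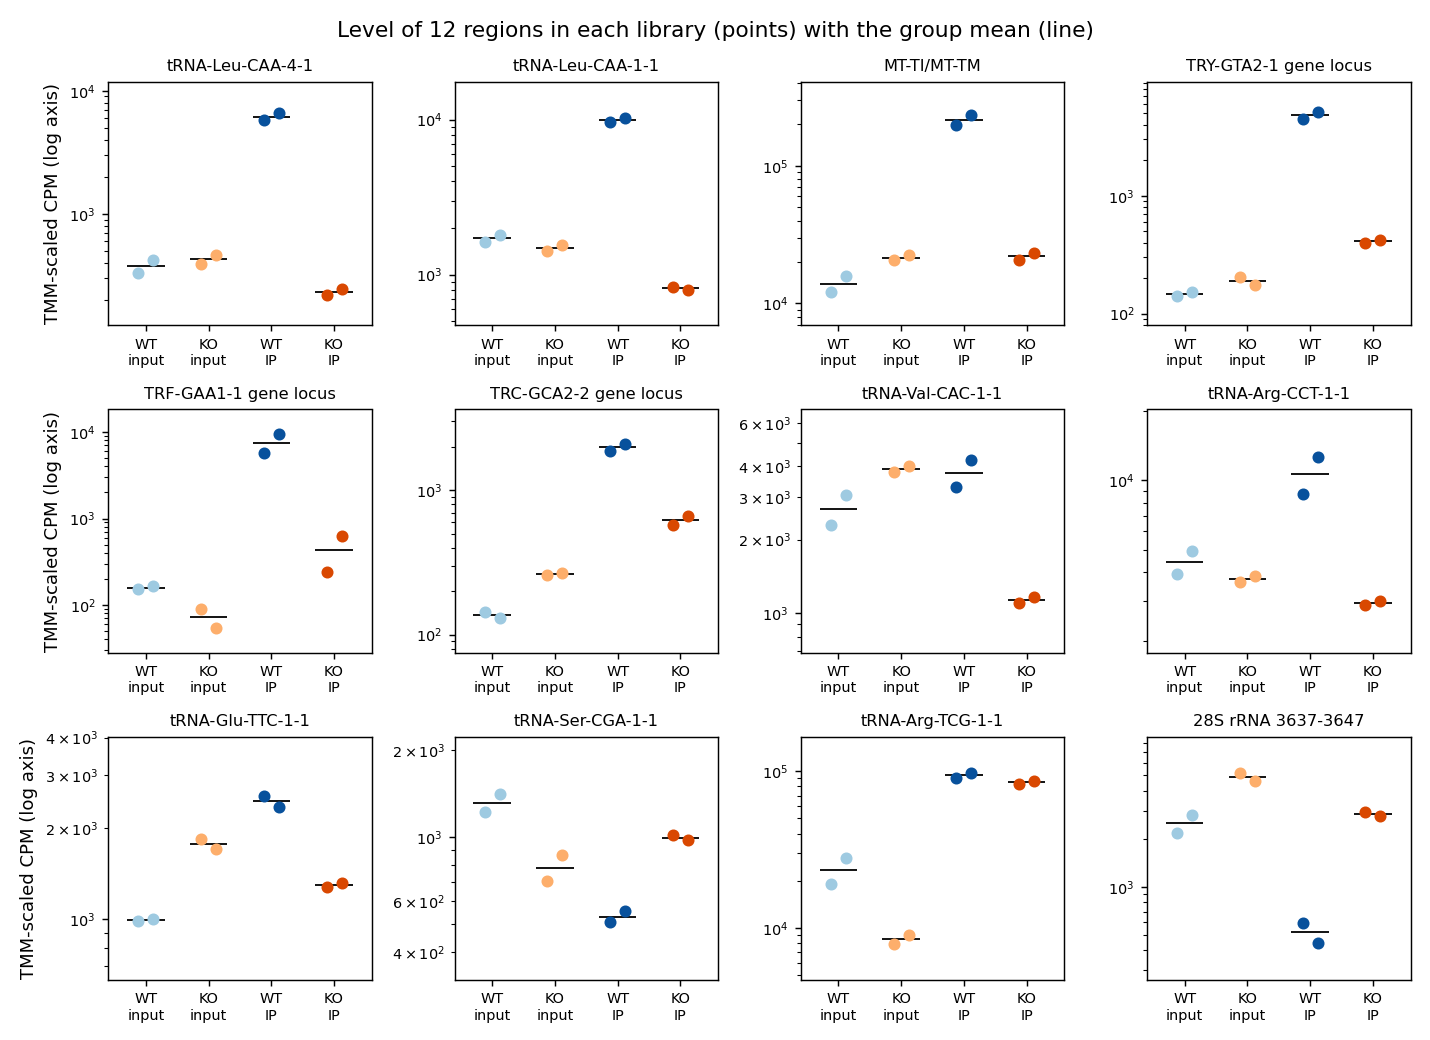
TMM-scaled CPM (y axis, log scale, 1 scale per panel) of 12 regions in each of the 8 libraries (points), with the group mean (line). In the panels of Leu-CAA-4-1 and of MT-TI/MT-TM/MT-ND1 the WT IPs are the highest libraries; in those of Ser-CGA-1-1 and 28S rRNA 3637-3647 they are the lowest.

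Gene loci other than Leu-CAA had 10 higher and 0 lower of 26, with a median of 0.41; with peak totals 7 were higher and 3 lower, with a median of 0.04, and in the paired fit 3 were lower. TRY-GTA2-1, a tRNA-Tyr gene, had 212 and 184 counts after pulldown in WT and 18 and 19 after pulldown in KO, against 13 and 13 before it in WT and 32 and 42 before it in KO. Its WT IPs were the highest libraries in CPM as well, at 4486 and 5097 against 397 and 423 in the KO IPs. The interaction was 3.90 ± 0.31 (adjusted p = 7.26e-05). Both other tRNA-Tyr loci missed the threshold. At TRY-GTA5-4 the pulldown enriched strongly in both lines, by 4.24 ± 0.18 in WT and 4.72 ± 0.21 in KO, with an interaction of −0.48 ± 0.27. The level of TRY-GTA5-4 was higher in WT in both fractions, with 420 and 299 counts after pulldown in WT and 75 and 78 after pulldown in KO, against 39 and 41 before it in WT and 10 and 15 before it in KO. TRY-GTA5-3 gave 0.60 ± 0.46.

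TRR-TCT1-1, a tRNA-Arg gene, had IP counts of 70 and 77 in WT and 15 and 11 in KO, over input counts of 16 and 13 in WT and 34 and 47 in KO. Its interaction was 2.96 ± 0.40 (adjusted p = 0.00141). Its merged region of 154 nt reached far upstream of the gene only through the KO inputs, whose peaks began at its nt 1. The WT input peaks began at nt 67 and every IP peak at nt 68, close to the start of the gene. TRC-GCA2-2, a tRNA-Cys gene, had IP counts of 88 and 76 in WT and 26 and 30 in KO, over input counts of 13 and 11 in WT and 41 and 64 in KO. In CPM both its KO IPs lay above all 4 inputs and both WT IPs above the KO IPs, and the interaction was 2.63 ± 0.31 (adjusted p = 6.01e-04). Another tRNA-Cys locus, TRC-GCA8-1, had 1.02 ± 0.29 (adjusted p = 0.0305), and no fit that left out a library kept it past the threshold. TRF-GAA1-1, a tRNA-Phe gene, had IP counts of 270 and 339 in WT and 11 and 28 in KO, over input counts of 14 and 14 in WT and 14 and 13 in KO. Its WT IPs stood apart, but its KO IPs differed strongly from each other, at 243 and 624 CPM. The interaction of 2.94 ± 0.70 (adjusted p = 0.0193) passed in 5 of 8 fits that left out a library. Its region lay inside the gene, where precursor and mature reads share sequence. The peaks of TRF-GAA1-1 spanned 35 and 38 nt in the WT IPs and 13 and 13 nt in the KO IPs. These genes are given with the anticodon in capitals.
TRC-GCA2-2 (chr17:38867645-38867716, plus strand): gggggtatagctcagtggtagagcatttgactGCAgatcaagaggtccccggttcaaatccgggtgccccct
TRF-GAA1-1 (chr6:28790722-28790794, minus strand): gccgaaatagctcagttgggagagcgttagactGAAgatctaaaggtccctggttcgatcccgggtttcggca

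The tRNAs whose genes hold an intron (Leu-CAA, Tyr-GTA, Ile-TAT and Arg-TCT) had 14 regions, 7 higher and 0 lower under each scaling but peak totals, where 1 was lower. Their 7 gene loci had 5 higher and a median of 3.50. Their 7 mature references had 2 higher, both Leu-CAA, and a median of 0.34 that became −0.03 with peak totals. Mature tRNA-Arg-TCT had 5 references with a peak, of which 3 were members. These gave 0.26 ± 0.20, 0.55 ± 0.32 and 0.17 ± 0.19, none past the threshold, beside 2.96 at the TRR-TCT1-1 locus. Gene loci without an intron had 8 higher and 0 lower of 22, and a median of 0.21 that became −0.16 with peak totals. The difference between loci and mature references was not tested.

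Loci with smaller interactions included tRNA-Ala genes and an initiator tRNA-Met gene. TRA-AGC1-1 had 3872 and 4820 CPM after pulldown in WT and 662 and 557 after pulldown in KO, against 1558 and 1562 before it in WT and 807 and 709.9 before it in KO. The KO IPs were the lowest libraries there, and the interaction was 1.79 ± 0.29 (adjusted p = 0.00362). TRA-TGC1-1 had 1.23 ± 0.30 (adjusted p = 0.0207), from an IP over input of 0.60 ± 0.21 in WT and −0.63 ± 0.22 in KO, both past the threshold, and it passed in 4 of 8 fits that left out a library. TRX-CAT1-1, the initiator gene, had 1037 and 969.6 CPM after pulldown in WT and 1059 and 1091 after pulldown in KO, against 132 and 188 before it in WT and 521 and 613 before it in KO. The IPs of the genotypes differed by −0.10 (adjusted p = 0.739), while the WT inputs were lower by a log2 difference of −1.83 (adjusted p = 0.00146). The resulting interaction was 1.73 ± 0.33 (adjusted p = 0.00653). Mature initiator tRNA-Met gave −0.31 ± 0.33 and missed the threshold.

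Among mature tRNAs other than Leu-CAA, tRNA-Val-CAC had 5 references with a peak, of which 4 were members. All 4 were higher in WT, at 2.27 ± 0.30 for 1-1, 1.82 ± 0.35 for 4-1, 1.16 ± 0.31 for 3-1 and 1.05 ± 0.32 for 2-1. Of these, 1-1 and 4-1 passed under every scaling. Val-CAC-1-1 had 3280 and 4266 CPM after pulldown in WT and 1103 and 1158 after pulldown in KO, against 2293 and 3064 before it in WT and 3799 and 3995 before it in KO. The KO IPs were the lowest libraries, while the WT IPs overlapped the inputs. IP over input was −1.78 ± 0.22 in KO (adjusted p = 2.50e-04) and 0.49 ± 0.20 in WT (adjusted p = 0.0686). In tRNA-Val-TAC, 4-1 had 1.68 ± 0.31 and 1-1 had 1.64 ± 0.30, again with KO ratios past the threshold, −1.47 and −1.51, and WT ratios that were not. Val-TAC-3-1 gave −0.63 ± 0.80, an error too wide to place it.

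Single references of 3 other tRNAs were higher under every scaling. Arg-CCT-1-1 had 8717 and 12550 CPM after pulldown in WT and 2889 and 2984 after pulldown in KO, against 3917 and 4943 before it in WT and 3615 and 3835 before it in KO. The WT IPs were the highest libraries and the KO IPs the lowest, with an interaction of 1.60 ± 0.29 (adjusted p = 0.00583). The other Arg-CCT references lay between −0.55 and 0.08 and did not pass. Glu-TTC-1-1 had 2560 and 2355 CPM after pulldown in WT and 1279 and 1314 after pulldown in KO, against 988 and 998 before it in WT and 1836 and 1710 before it in KO. Its order reversed between the fractions, WT being above KO in the IPs and below it in the inputs, and the interaction was 1.76 ± 0.24 (adjusted p = 0.00142). Glu-TTC-2-1 gave −0.09 ± 0.24. Trp-CCA-2-1 had 5184 and 5374 CPM after pulldown in WT and 2558 and 2895 after pulldown in KO, against 3368 and 4696 before it in WT and 4339 and 4692 before it in KO. Its WT IPs were the highest libraries, and the interaction of 1.12 ± 0.27 (adjusted p = 0.0193) passed in 4 of 8 fits that left out a library. The genes of these tRNAs follow, with the anticodon in capitals.
tRNA-Val-CAC-1-1 (chr1:161399700-161399772, minus strand): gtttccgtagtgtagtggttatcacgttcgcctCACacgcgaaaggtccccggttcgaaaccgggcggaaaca
tRNA-Val-TAC-1-1 (chr11:59550629-59550701, minus strand): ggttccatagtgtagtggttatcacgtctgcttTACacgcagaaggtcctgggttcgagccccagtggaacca
tRNA-Arg-CCT-1-1 (chr17:75033906-75033978, plus strand): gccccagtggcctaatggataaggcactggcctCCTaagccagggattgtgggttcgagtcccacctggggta
tRNA-Glu-TTC-1-1 (chr2:130337128-130337199, minus strand): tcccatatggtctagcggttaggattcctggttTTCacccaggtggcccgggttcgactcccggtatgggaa
tRNA-Trp-CCA-2-1 (chr17:19508181-19508252, plus strand): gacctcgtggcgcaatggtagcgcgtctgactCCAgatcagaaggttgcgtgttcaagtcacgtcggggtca

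Per anticodon, 8 of 36 sums (22.2%) were past the threshold, all of them higher in WT. At an unadjusted p under 0.05, 4 were lower, and DESeq2 called 7 higher and 5 lower. With inputs and IPs paired, 16 sums passed, 12 higher and 4 lower, the 4 being Arg-TCG, Asp-GTC, Lys-CTT and Lys-TTT. Beside Leu-CAA the 8 were Val-CAC at 1.73 ± 0.29, elongator Met-CAT at 1.42 ± 0.42, Val-TAC at 1.36 ± 0.28, Trp-CCA at 1.25 ± 0.27, Cys-GCA at 1.10 ± 0.32, Thr-CGT at 0.91 ± 0.23 and Phe-GAA at 0.81 ± 0.24. Leu-CAA, Val-CAC, Val-TAC and Trp-CCA passed under all 4 scalings. Over references listed in every library, Cys-GCA gave 0.91 ± 0.31 (adjusted p = 0.0615) and Thr-CGT 0.72 ± 0.26 (adjusted p = 0.0787), neither past the threshold. Not past the threshold were Gly-CCC at 0.30 ± 0.21, Glu-CTC at 0.19 ± 0.32, Gln-CTG at 0.03 ± 0.29, Ser-CGA at −0.10 ± 0.23, initiator Met-CAT at −0.16 ± 0.37 and Arg-TCG at −0.62 ± 0.27 (paired, −0.60 ± 0.12, adjusted p = 0.00601), and with peak totals Gly-CCC, Glu-CTC and Gln-CTG were below 0. Such values do not show equal enrichment, since the 95% interval of Gln-CTG, for example, ran from −0.63 to 0.69. The lowest sum was Pro-TGG at −1.06 ± 0.37 (adjusted p = 0.0667).

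**Figure D4:**
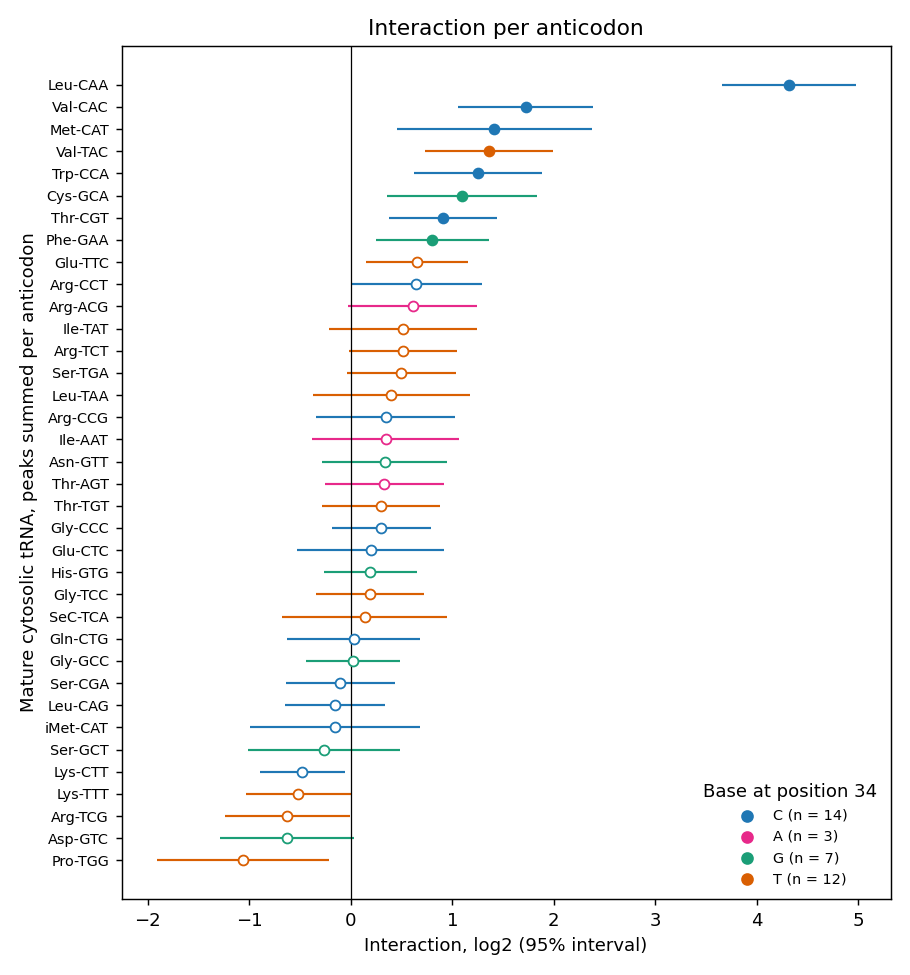
Interaction (x axis, log2, lines are 95% intervals) of 36 mature tRNA anticodon sums (y axis) with TMM scaling, coloured by the base at position 34; filled points passed an adjusted p of 0.05. Leu-CAA at 4.32 stands apart from the next sum, Val-CAC at 1.73; 4 of the 8 filled points, Leu-CAA, Val-CAC, Val-TAC and Trp-CCA, passed under every scaling.

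A cytidine at position 34, where the known f5C of Leu-CAA lies, was present in 33 of 84 mature references, of which 10 were higher and 3 lower. The study also reported C-to-T changes that it read as likely f5C around the anticodon of Val-CAC, Met-CAT, Glu-CTC and Gly-CCC. Its mass spectrometry of single isolated tRNAs gave modest decreases of f5C in KO for Glu-CTC and Gly-CCC. For Val-CAC and Gln-CTG that method showed no change. The split by the base at position 34 therefore does not separate references that can hold f5C from those that cannot. Without Leu-CAA, 8 were higher and 3 lower of 31, with a median of 0.17; the calls were 6 higher and 7 lower with RLE factors and 4 higher and 7 lower with peak totals. References with T there had 4 higher and 2 lower of 32 (median 0.07), with G 1 higher and 0 lower of 14 (median −0.05) and with A 1 higher and 0 lower of 5 (median 0.14). With peak totals the medians were −0.21 for C without Leu-CAA, −0.30 for T, −0.43 for G and −0.23 for A, and the calls were 3 higher and 4 lower for T, 0 and 7 for G and 0 and 1 for A. Values within C34 outside Leu-CAA ran from −1.65 for Ser-CGA-1-1 to 2.27 for Val-CAC-1-1.

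On the lower side, tRNA-Ser-CGA-1-1 had 508 and 554 CPM after pulldown in WT and 1014 and 979.7 after pulldown in KO, against 1218 and 1409 before it in WT and 705 and 865 before it in KO. The WT IPs were the lowest libraries and the WT inputs the highest. Its interaction was −1.65 ± 0.30 (adjusted p = 0.00583), whereas Ser-CGA-4-1 gave 0.17 ± 0.23. tRNA-Arg-TCG-1-1, the mature tRNA with the highest mean CPM, had 91150 and 97790 CPM after pulldown in WT and 83450 and 86910 after pulldown in KO, against 19140 and 27970 before it in WT and 7947 and 9032 before it in KO. It was enriched in both lines, by 2.00 ± 0.17 in WT and 3.33 ± 0.18 in KO, with an interaction of −1.32 ± 0.24 (adjusted p = 0.00583). The WT inputs were higher by a log2 difference of 1.47 (adjusted p = 0.00103), while the IPs differed by 0.15 (adjusted p = 0.509). None of the other Arg-TCG references passed, the highest being 2-1 at 0.22 ± 0.21. The TRR-TCG1-1 locus, the gene locus with the highest mean CPM, gave −2.08 ± 0.76 (adjusted p = 0.0769), and −2.20 ± 0.24 (adjusted p = 0.00192) in the paired fit; replicate 1 was above replicate 2 there in all 4 groups. Anticodons are again in capitals.
tRNA-Ser-CGA-1-1 (chr17:8138881-8138962, minus strand): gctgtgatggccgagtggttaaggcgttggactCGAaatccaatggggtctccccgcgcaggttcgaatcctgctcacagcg
tRNA-Arg-TCG-1-1 (chr15:89335073-89335145, plus strand): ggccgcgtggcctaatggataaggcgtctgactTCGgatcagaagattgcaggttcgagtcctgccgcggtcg

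The lysine tRNAs Lys-CTT-1-1 at −0.92 ± 0.21 and Lys-TTT-3-1 at −0.79 ± 0.21 were lower under every scaling. Lys-CTT-1-1 was depleted by the pulldown in both lines, by −1.67 ± 0.15 in WT and −0.75 ± 0.14 in KO. Lys-TTT-3-1 had 16290 and 14770 CPM after pulldown in WT and 17000 and 15760 after pulldown in KO, against 14250 and 15220 before it in WT and 10190 and 7759 before it in KO. Its IPs overlapped and its WT inputs lay above its KO inputs. Gln-CTG-4-1 had −1.08 ± 0.34 (adjusted p = 0.045) and did not pass with rRNA counts as library sizes.

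Mitochondrial tRNAs outside the MT-TM region had interactions of both signs. On the plus strand, MT-TG/MT-CO3 at 0.98 ± 0.27 and MT-TT/MT-CYB at 0.73 ± 0.20 were higher with TMM but not under every scaling, and MT-TF/MT-RNR1 at −1.24 ± 0.22 was lower under all 4. MT-TF/MT-RNR1 joins tRNA-Phe to the start of the 12S rRNA and had 5353 and 4405 CPM after pulldown in WT and 9527 and 8484 after pulldown in KO, against 10350 and 11210 before it in WT and 9142 and 7679 before it in KO. Its WT IPs stood apart below the other libraries. In the inputs the region was called as 2 to 4 separate peaks, covering 58 and 59 nt in WT and 54 and 51 nt in KO. In the IPs it was 1 peak, of 129 and 129 nt in WT and 94 and 94 nt in KO. On the minus strand MT-TP (tRNA-Pro) had 233 and 360.1 CPM after pulldown in WT and 1566 and 1425 after pulldown in KO, against 1635 and 1914 before it in WT and 4244 and 4650 before it in KO. Both fractions were lower in WT, the IPs more so, and the interaction was −1.03 ± 0.33 (adjusted p = 0.0469). MT-TS1, MT-TY/MT-TC and MT-TA, between −1.05 and −0.06, did not pass.

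In cytosolic rRNA, positions count from the 5′ end of each mature rRNA. The 28S rRNA had 7 lower and 0 higher of 17 regions with a median of −0.66, and those 7 were lower under every scaling. None was higher at an unadjusted p under 0.05 or by DESeq2. The 18S rRNA had 2 lower and 1 higher of 9 with a median of −0.03, which ran from −0.42 with peak totals to 0.16 with rRNA counts as library sizes. The lowest region, 28S 2738-2747, had 10 and 11 counts after pulldown in WT and 50 and 41 after pulldown in KO, against 156 and 147 before it in WT and 351 and 402 before it in KO. Both WT IPs were at or near the minimum count, and the interaction was −1.80 ± 0.37 (adjusted p = 0.00934). Its peaks spanned 2 and 3 nt in the WT IPs and 5 and 4 nt in the KO IPs. In the inputs they spanned 10 and 10 nt for WT and 8 and 6 nt for KO. The region 28S 3637-3647 had 592 and 443 CPM after pulldown in WT and 2933 and 2783 after pulldown in KO, against 2183 and 2830 before it in WT and 5165 and 4587 before it in KO. Its IP over input was lower in WT, at −2.26 ± 0.23, than in KO, at −0.77 ± 0.19, with an interaction of −1.49 ± 0.30 (adjusted p = 0.00934). Its peaks covered 2 and 3 nt in the WT IPs and 8 and 8 nt in the KO IPs. In the inputs its peaks covered 8 and 10 nt for WT and 10 and 10 nt for KO. The WT IP counts thus come from a shorter stretch. Just upstream, at 28S 3589-3625, IP over input was 1.67 ± 0.18 in KO, past the threshold, and 0.14 ± 0.19 in WT (adjusted p = 0.573). The interaction there was −1.54 ± 0.26 (adjusted p = 0.00454). The KO peaks covered 4 and 6 nt in the inputs and 35 and 25 nt in the IPs. The WT peaks covered 16 and 9 nt in the inputs and 22 and 33 nt in the IPs. At 28S 4249-4274 the WT IPs, with 2179 and 2078 CPM, lay below all other libraries, and the interaction was −1.38 ± 0.20 (adjusted p = 0.0021). The peaks there covered 7 and 11 nt in the WT IPs and 26 and 26 nt in the KO IPs. In the inputs they covered 17 and 17 nt for WT and 11 and 10 nt for KO. In 18S 912-919 the interaction was −1.24 ± 0.31 (adjusted p = 0.0235). These regions are shown with the region in capitals and 12 nt on each side, from GRCh38, RefSeq gene positions.
28S rRNA 2738-2747 (chr21:8443871-8443904, plus strand): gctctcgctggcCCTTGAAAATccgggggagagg
28S rRNA 3589-3625 (chr21:8444722-8444782, plus strand): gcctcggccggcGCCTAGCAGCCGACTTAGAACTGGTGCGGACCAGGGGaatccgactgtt
28S rRNA 3637-3647 (chr21:8444770-8444804, plus strand): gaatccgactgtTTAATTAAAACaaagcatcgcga
28S rRNA 4249-4274 (chr21:8445382-8445431, plus strand): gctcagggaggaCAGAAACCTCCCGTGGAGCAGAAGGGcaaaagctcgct
18S rRNA 912-919 (chr21:8437775-8437806, plus strand): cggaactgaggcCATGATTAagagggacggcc

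The 5.8S rRNA, the rRNA with the highest mean CPM, gave −0.41 ± 0.17 (adjusted p = 0.103). The 5S rRNA was lower at −0.50 ± 0.14 (adjusted p = 0.0305), though not with rRNA counts as library sizes or in the paired fit (−0.49 ± 0.16, adjusted p = 0.0571). The 3′ end of 18S, 1766-1857, was higher at 0.55 ± 0.15 (adjusted p = 0.0275), though not with peak totals. The highest 28S value, at 2338-2386, was 0.48 ± 0.30 and did not pass. At 18S 1281-1346 the pulldown enriched in both lines, with 13520 and 9696 CPM after pulldown in WT and 39610 and 40530 after pulldown in KO, against 1042 and 1338 before it in WT and 5368 and 4965 before it in KO. Every KO library was above its WT counterpart there, and the interaction was 0.33 ± 0.26 (adjusted p = 0.378). The peaks of this region covered 37 and 21 nt in the WT IPs and 66 and 66 nt in the KO IPs. In the inputs they covered 2 and 2 nt for WT and 6 and 6 nt for KO. These ratios and orders therefore set counts over stretches of unlike length against each other.

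Outside tRNA and rRNA, small RNAs had 2 higher and 0 lower of 13, the U5 snRNA gene RNU5E-1 at 1.35 ± 0.33 and the snoRNA SNORD57 at 1.21 ± 0.29, neither of them under every scaling. No small RNA was lower at an unadjusted p under 0.05, and DESeq2 called 0 higher and 1 lower. RN7SL1, a gene of the 7SL RNA and the small RNA with the highest mean CPM, gave −0.33 ± 0.21. The lncRNA ENSG00000286171 had 889 and 942 CPM after pulldown in WT and 904 and 1069 after pulldown in KO, against 1821 and 2395 before it in WT and 4879 and 5104 before it in KO. Its IPs overlapped while its WT inputs lay below its KO inputs, and the interaction was 1.13 ± 0.29 (adjusted p = 0.0256). The lncRNA ENSG00000289474 was lower at −1.59 ± 0.46 (adjusted p = 0.035) but passed in only 2 of 8 fits that left out a library. An intron of NUTF2, the one protein-coding region of 7 past the threshold, had −1.13 ± 0.34 (adjusted p = 0.0404). It did not pass with rRNA counts as library sizes (adjusted p = 0.126). Its interaction ran from −1.45 to −0.93 in the fits that left out a library. The most abundant intergenic region, chr6:46771025-46771044, gave −0.96 ± 0.58, with 457 and 1243 CPM in its KO inputs.

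Where no difference was shown, the best measured regions give the precision. The smallest errors among regions that missed the threshold were those of MT-RNR2/MT-TL1, 28S 4920-5053 and the 5′ end of 28S. Their interactions were 0.26 (95% interval −0.11 to 0.62), 0.02 (−0.34 to 0.39) and −0.35 (−0.73 to 0.03).

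The ratios behind the interaction share libraries and are given side by side. IP over input was past the threshold in 111 regions in WT (59.7%) and in 98 in KO (52.7%), the IPs of the genotypes differed in 77 (41.4%) and the inputs in 66 (35.5%). Of the 37 regions higher in WT, 13 were enriched in WT with no KO ratio past the threshold, 10 were depleted in KO with no WT ratio past it, 8 were enriched in both lines and 3 were depleted in both. The remaining 3, tRNA-Leu-CAA-4-1, tRNA-Leu-CAA-1-1 and TRA-TGC1-1, were enriched in WT and depleted in KO. Between genotypes, 20 of the 37 had higher WT IPs with no input difference past the threshold, and 4, among them the MT-TI/MT-TM region, had higher WT IPs and lower WT inputs. In 10 the inputs alone differed, lower in WT, among them Val-CAC-2-1, Val-CAC-3-1, Val-TAC-4-1 and TRX-CAT1-1. Of the 19 regions lower in WT, 9 had lower WT IPs with no input difference past the threshold, 5 had both fractions lower, and 2, Arg-TCG-1-1 and Lys-TTT-3-1, differed in the inputs alone. The IPs of the genotypes did not overlap in 33 of the 37 and 18 of the 19, beside 65.6% of all 186 regions.

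**Figure D5:**
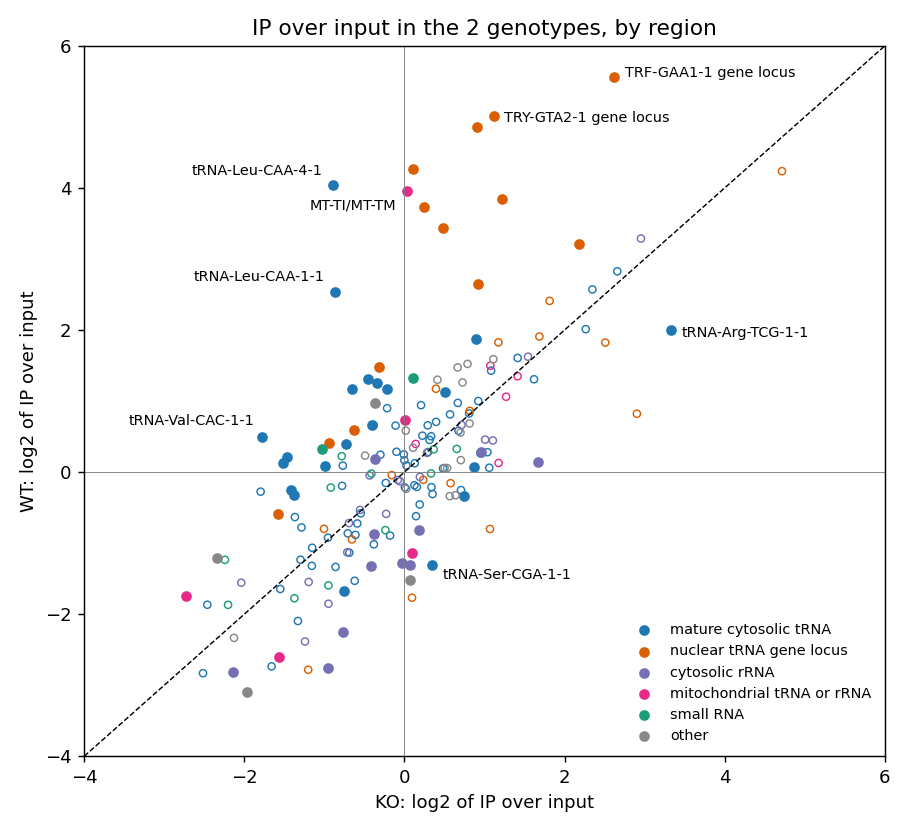
IP over input in WT (y axis, log2) against KO (x axis, log2) for the 186 regions with TMM scaling, coloured by class; filled points have an interaction past the threshold. The points of tRNA-Leu-CAA-4-1 (KO −0.89, WT 4.04) and MT-TI/MT-TM/MT-ND1 (KO 0.03, WT 3.96) lie far from equality, and Arg-TCG-1-1 (KO 3.33, WT 2.00) lies on the other side.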

How the data were processed

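As the study's methods describe, the authors ran ARP-seq reads through the iCount consensus pipeline (deduplication by molecular identifiers; STAR mapping to tRNA and rRNA, then to GRCh38, unique hits kept) and called peaks per library with Paraclu. The deposited peak values are cDNA counts, without normalization; 2 lists per library were used, 16 in all. tRNA copies and gene loci can share reads. Here peaks were merged (1 nt or more, same strand), and the members' counts went into edgeR 4.0.16 (R 4.3.3; TMM on the members' sums, design of 4 groups, quasi-likelihood F test, two-sided, Benjamini-Hochberg over all 186 regions, threshold 0.05). Each input was taken from the labelled RNA whose rest was pulled down, so input and IP of 1 genotype and number were treated as pairs in an alternative fit (replicate differences correlated at 0.50 in WT and 0.24 in KO); numbers are not known to pair the genotypes (−0.04 to 0.44). DESeq2 1.42.0, other scalings, a mean count of 50, other treatments of uncalled regions, a replicate block and each library left out were alternatives. Named regions followed a rule: Leu-CAA and mitochondrial tRNA-Met, 8 further anticodons, the 12 highest and lowest calls, the most abundant region per class, the 3 smallest errors and rRNA extremes; other regions were chosen after their values were seen. Members and lists were chosen with earlier results of these data known. Requiring 8 peaks leaves out regions lost in a group. Sequences came from GRCh38 (samtools 1.23.1).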

Additional observations from a re-analysis of the deposited data

Results flagged for a closer look

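In 3 regions the pulldown moved in opposite directions in the genotypes, with both ratios past the threshold and the difference tested by the interaction: tRNA-Leu-CAA-4-1 (4.92), tRNA-Leu-CAA-1-1 (3.40) and the TRA-TGC1-1 locus (1.23).

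Regions outside the 186 also held IP signal that the interaction could not use, because some library listed no peak there. At the TRL-CAA4-1 locus the WT IPs held 622 counts together and the KO IPs listed none, beside input counts of 15 and 22 for WT and 26 and 41 for KO. At TRL-CAA2-1 the WT IPs held 126 counts and the KO IPs listed none. Mature tRNA-Leu-CAA-2-1 and 3-1 held 211 and 339 counts in the WT IPs, with 11 counts each in KO IP replicate 1 and none listed in replicate 2. tRNA-Leu-CAA-6-1 was listed in WT IP replicate 1 alone, with 23 counts. A region with no listed peak can still hold reads below the 10-count minimum, so no fold is given.

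Of the 1373 merged regions, 23 had a peak in all 4 inputs and both WT IPs but in neither KO IP, and 20 had the reverse. Of the 23, 16 were nuclear tRNA gene loci, beside 29 of the 186 members. The share of such loci among all 1373 regions is not given here. The 16 included TRK-CTT2-1 with 128 and 130 counts and TRW-CCA2-1 with 87 and 114 counts in the WT IPs. Of the 20, 1 was a tRNA gene locus, 6 were small RNAs, and lncRNA, mitochondrial rRNA, cytosolic rRNA and mature tRNA gave 3 each. These counts were not tested.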

How the results depend on the processing

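Beside the 56 calls (37 higher, 19 lower), RLE factors gave 32 lower, peak totals 21 higher and 48 lower, DESeq2 18 higher and 34 lower, and a mean count of 50 or more 24 higher and 32 lower. Setting uncalled regions to 0 gave 91 calls, 48 of them lower; setting them to 10 gave 151, with 93 higher and 58 lower. Regions with 1 peak in every library gave 23 higher, and summing mature tRNA per anticodon gave 37 calls, 7 lower. Leaving out 1 library gave 33 to 67 calls, 17 to 32 higher and 10 to 35 lower; the lowest total, 33, came without WT IP replicate 2 and without KO IP replicate 1. The 8 anticodon sums became 13 with the mean count filter and 3 to 9 without 1 library. No region past the threshold changed sign. Anticodon sums that were not past it did: Glu-CTC to −0.0214 (RLE), −0.34 (peak totals), −0.0178 (DESeq2) and −0.21 (mean count of 50), Gln-CTG to −0.19, −0.51, −0.19 and −0.38 and, over references listed in every library, to −0.19, and Gly-CCC to −0.26 (peak totals) and −0.13 (mean count of 50). Without 1 library Glu-CTC ran from −0.0264 to 0.40, Gln-CTG from −0.15 to 0.21, iMet-CAT from −0.63 to 0.26 and Ser-CGA from −0.33 to 0.0131. The cause of these changes was not tested. A replicate block gave 70 calls, 42 higher and 28 lower, including all 56, and added TRR-CCT3-1, TRR-TCG1-1, TRI-AAT1-1 and TRS-GCT3-1 as lower gene loci. A block that pairs input and IP within each genotype, chosen after seeing the data, gave 66 calls, 42 higher and 24 lower, with 55 of the 56 (5S rRNA was lost), and 16 anticodon sums. Anticodon sums over references listed in every library, or with unlisted references set to 10, also chosen after seeing the data, gave 7 each. The 10-count minimum and 2 libraries per group limit the precision of low regions.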
